A study of Rattus norvegicus with 12 samples.

Results

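miR-152 and miR-152* are the 2 strands cut from one precursor hairpin, and both were listed in the basal small RNA table of Kupffer cells, which are macrophages that reside in the rat liver. They were taken by their names in that table (rno-miR-152 and rno-miR-152*) and are 2 of its 30 miRNAs. The table itself keeps only miRNAs whose level with ethanol feeding was lower by at least 2-fold, so 30 of its 30 miRNAs (100%) are lower by that rule. The levels in these 6 libraries therefore chose the members, and the difference between the diets is given as a description with no test. miR-541 and miR-214 lie just inside the 2-fold limit of the table, at 2.03-fold lower each, and miRNAs outside it were not analysed here.

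The series holds 12 libraries in 4 groups of 3, from Kupffer cells of adult male Wistar rats. Ethanol-fed rats had free access to a liquid diet with 35% of calories from ethanol for 4 weeks, and pair-fed rats received the same diet with maltose dextrin in place of ethanol. Cells of both diets were put in primary culture for 18 h, and the 6 basal libraries used here (3 pair-fed, 3 ethanol-fed) received no HA35, the hyaluronic acid fragment given for 5 h to the other 6. Replicates are numbered by day, and whether a library holds the cells of 1 rat or of several is not stated in the labels. Total reads were 2865329 to 6151744 per basal library, of which 1630301 to 3805958 aligned. In 25 of the 30 miRNAs of the table the highest value was that of pair-fed replicate 1. Neither strand of miR-152 is among the 3 miRNAs of the HA35 table, and their levels with HA35 were not analysed here.

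A miRNA is loaded as a single strand into an Argonaute protein and pairs with messenger RNAs through its seed, the bases 2 to 8 from its 5′ end. The other strand of the hairpin, marked with a star in the older naming used in these tables, is mostly discarded. miR-152 forms a family with miR-148a and miR-148b, which is known in human and mouse cells to repress the DNA methyltransferase DNMT1. In mouse dendritic cells the family has been described as restraining responses to Toll-like receptor ligands through the kinase CaMKIIα.

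Both strands matched a mature miRNA of RefSeq (build GRCr8). The deposited table numbers miR-152* as the first and miR-152 as the second product of the precursor, so miR-152* was read as the 5p strand and miR-152 as the 3p strand. This reading is an assumption, because miR-3559-3p and miR-741-3p are also numbered as first products. The sequences of both strands, and of the family members that share a seed with miR-152, are shown 5′ to 3′ with the seed in capitals, because the seed tells apart what the strands can pair with.
miR-152 (rno-miR-152-3p): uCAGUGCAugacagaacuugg
rno-miR-148a-3p: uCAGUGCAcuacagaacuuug
rno-miR-148b-3p: uCAGUGCAucacagaacuuugu
miR-152* (rno-miR-152-5p): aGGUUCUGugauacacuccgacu

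The seed of miR-152 is carried by 3 of the 724 rat mature miRNAs of RefSeq, these 3 family members. Counted from the 5′ end of miR-152, miR-148b-3p differs by G10C and G20U, and miR-148a-3p by U9C, G10U and G20U, all outside the seed. The seed of miR-152* is carried by no other of the 724. miR-148a and miR-148b are not in the basal table, so that of the 3 family names only miR-152 could be followed. miR-152* and miR-152 lie at chr10:82329397-82329419 and chr10:82329435-82329455 of GRCr8, on the plus strand and 15 bases apart, within the bounds of Copz2, which encodes a subunit of the COPI vesicle coat. In a computed duplex (RNAduplex) the strands formed 15 base pairs with each other, as strands cut from one hairpin do.

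miR-152, the strand with the conserved family seed, was lower on average in ethanol-fed rats, but its groups met. Its normalized log2 values, which are relative to the median of the miRNA over the 6 libraries, were 2.13, -0.04 and 0.72 in pair-fed replicates 1 to 3. In ethanol-fed replicates 1 to 3 they were -0.47, -0.70 and 0.04. Ethanol-fed replicate 3 thus lay slightly above pair-fed replicate 2, and the highest library by far was pair-fed replicate 1. The mean of the pair-fed libraries was 0.94 ± 0.64 (SEM, n = 3), and that of the ethanol-fed libraries -0.38 ± 0.22 (SEM, n = 3). The difference of -1.32 on the log2 scale, a 2.49-fold lower level, was larger than the pooled SD (0.82) but smaller than the pair-fed range (2.17). It was -0.72 without pair-fed replicate 1, and -2.61, -0.66 and -0.69 within days 1, 2 and 3. The difference within day 1, which holds that library, was thus the widest, and the other days lay close to each other. In bulk libraries of this kind, fewer cells that carry a miRNA and less of it per cell cannot be told apart.

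miR-152*, the 5p strand, showed the largest difference of the 30 miRNAs in the deposited values, in which its diets did not overlap. Its normalized log2 values were 1.47, 1.17 and 0.61 in pair-fed replicates 1 to 3. In ethanol-fed replicates 1 to 3 they were -0.61, -1.52 and -1.52. Every ethanol-fed library lay below every pair-fed library, with a gap of 1.22 between the nearest libraries. Such a separation was seen in 7 of the 30 miRNAs of the table (23.3%), of which miR-152* is one and miR-152 is not. The mean of the pair-fed libraries was 1.08 ± 0.25 (SEM, n = 3), and that of the ethanol-fed libraries -1.21 ± 0.30 (SEM, n = 3). The difference was -2.30 on the log2 scale, a 4.92-fold lower level, against a pooled SD of 0.48. It was -2.08, -2.69 and -2.13 within days 1, 2 and 3, and stayed between -2.60 and -2.10 when any single library was left out. Ethanol-fed replicates 2 and 3 hold the same value, a floor described below. The ethanol-fed SEM, the pooled SD and this range therefore do not measure the full spread between libraries. The fold also depends on where the floor was set. With the median of the table subtracted from each library the diets overlapped for miR-152*, as they did for all 30 miRNAs. All 30 were kept for a lower level with ethanol, so that median carries part of the diet difference itself. This overlap therefore says little about miR-152*.

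**Figure D1:**
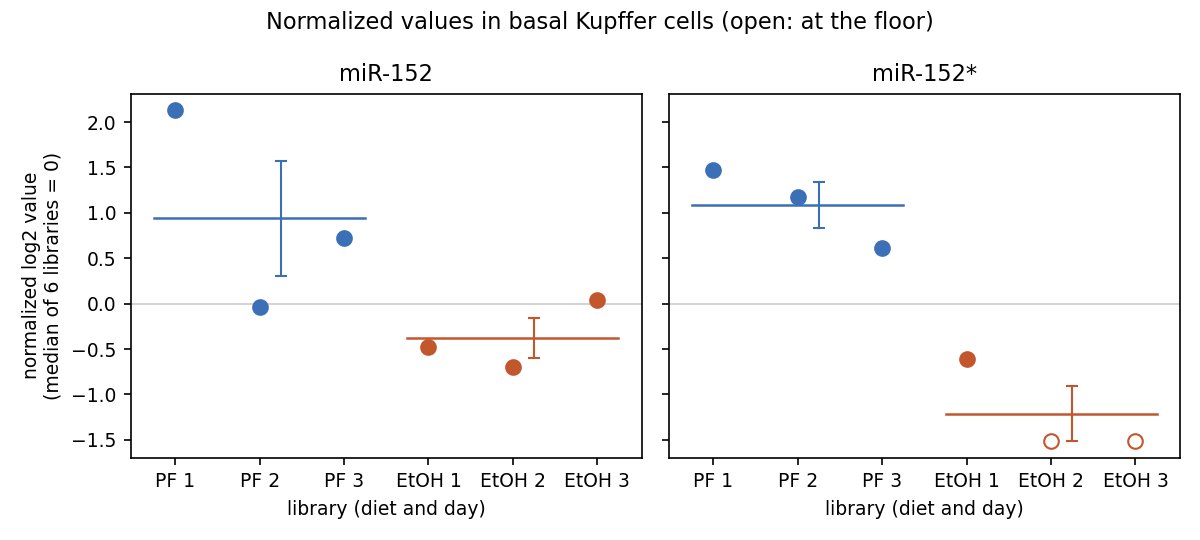
Normalized log2 values (median of the 6 libraries set to 0) of miR-152 and miR-152* in each basal library, pair-fed (PF, blue) and ethanol-fed (EtOH, orange), by day. Horizontal lines are group means, error bars are SEM (n = 3), and open symbols are libraries at the shared lowest value. For miR-152, EtOH 3 (0.04) lies above PF 2 (-0.04), and for miR-152* all EtOH libraries lie below all PF libraries.

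Ethanol-fed replicates 2 and 3 shared exactly the same lowest value of miR-152* (-1.52). In 7 of the 30 miRNAs at least 2 libraries share a lowest value in this way, as at a floor to which low values were raised. The others are miR-3559-3p, miR-741-3p, miR-190, miR-455*, miR-541 and miR-301a*. Above that floor the values were whole multiples of a constant of each library, as they are when whole reads are divided by a scaling factor, and the reads behind them could be worked out. For 29 of the 30 miRNAs, whole reads were found for all values above the floor, within 0.002 of a read plus 2e-06 of the value. Coming out whole was mostly the condition for assigning reads, so it is no separate check of them. For miR-10a-5p no whole reads were found. The reads are the smallest whole numbers that give the values, so a common multiple for a miRNA is possible and would leave its ratios unchanged. The scaled value of 1 read, divided by its value in reads per 1000000 aligned reads (RPM), lay between 2.19 and 2.50 in the 6 libraries, so that the scaling followed the aligned reads closely. A value at the floor stood for 0 reads in ethanol-fed replicates 2 and 3, where 1 read would have lain above the floor.

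miR-152* rested on very few reads, 24 in all 6 libraries, against 422 reads of miR-152. There were 7, 11 and 4 reads of miR-152* in pair-fed replicates 1 to 3. Ethanol-fed replicates 1 to 3 had 2, 0 and 0. Among the 29 miRNAs with reads, miR-152 ranked 11 and miR-152* ranked 22 by their number. The strand with the largest difference in the deposited values was thus among the rarer ones of the table, and that difference includes 2 libraries at the floor. With them left out, which leaves replicate 1 as the only ethanol-fed library, it was -1.69. Several miRNAs had larger differences over all libraries, from miR-181b-1* (-2.05) and miR-126* (-1.93) to miR-455* (-1.71).

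In RPM, miR-152* was at 3.35 (1.35 to 6.90), 2.89 (1.44 to 5.17) and 1.99 (0.54 to 5.10) in pair-fed replicates 1 to 3. The bounds are exact 95% Poisson intervals, which, like the other intervals and limits given here, cover counting error only. It was at 0.80 (0.097 to 2.89) in ethanol-fed replicate 1. A count of 0 allows up to 1.84 RPM in ethanol-fed replicate 2 and 1.56 in replicate 3, set as 3 reads of the library. These limits and the upper bound of ethanol-fed replicate 1 reach into the interval of every pair-fed library, so that no pair-fed library was set apart from an ethanol-fed one by these bounds. Summed over libraries, there were 22 reads in 7903238 aligned reads of pair-fed and 2 in 6058234 of ethanol-fed rats, a ratio of 8.43 (95% counting interval 2.07 to 74.0). Without ethanol-fed replicate 1, where both ethanol-fed reads lay, the ratio was at least 3.30, taking 3 reads over the group as the limit of a count of 0. The 22 pair-fed reads were taken as exact there, so their own counting error is left out of this limit. When each of the other 5 libraries was left out in turn, the ratio was 5.75 to 9.25.

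In RPM, miR-152 was at 86.6 (74.4 to 100.2), 20.5 (16.2 to 25.6) and 35.4 (27.6 to 44.6) in pair-fed replicates 1 to 3, from 181, 78 and 71 reads. In ethanol-fed replicates 1 to 3 it was at 14.4 (10.1 to 19.9), 11.7 (7.02 to 18.2) and 19.2 (13.5 to 26.5), from 36, 19 and 37 reads. On this scale the lowest pair-fed library lay above the highest ethanol-fed library, by 1.30 RPM, which is within their counting intervals. The diets thus overlapped slightly in the normalized values of miR-152 and not in RPM. The share over the table was not counted in RPM, so the separation there is not read as particular to miR-152. The normalized values also ceased to overlap without pair-fed replicate 2 or without ethanol-fed replicate 3. In these 2 settings, 16 and 12 of the 30 miRNAs did not overlap. The interval of pair-fed replicate 1, by contrast, lay above those of the other 5 libraries. Summed over libraries there were 330 reads with pair feeding and 92 with ethanol feeding, a ratio of 2.75 per aligned read (95% counting interval 2.18 to 3.50). This ratio was 1.69 without pair-fed replicate 1 and 4.05 without pair-fed replicate 2.

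**Figure D2:**
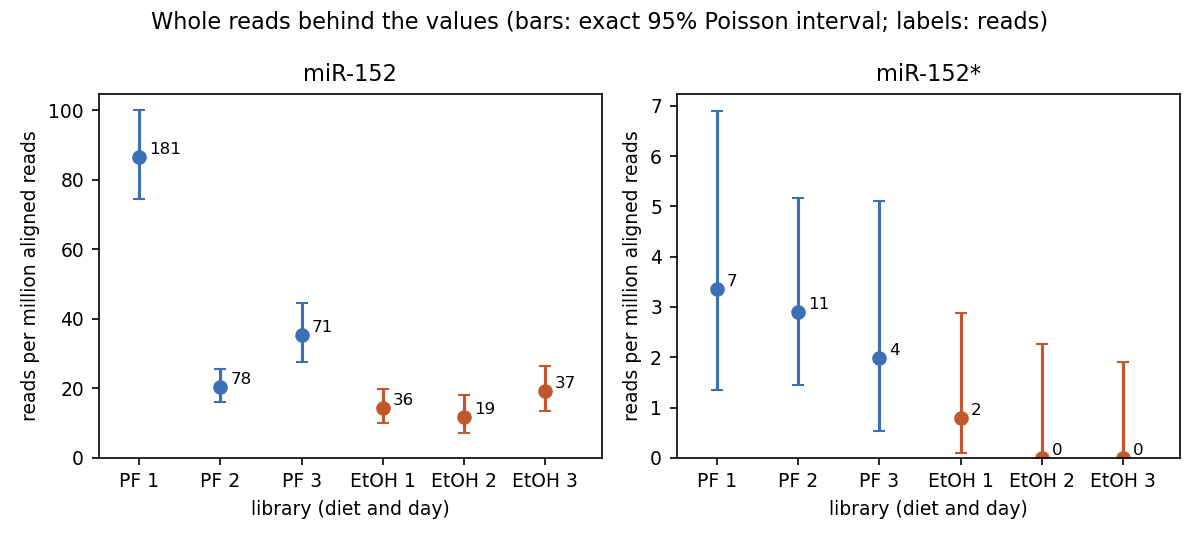
Reads per 1000000 aligned reads (RPM) of miR-152 and miR-152* in each basal library (PF, pair-fed, blue; EtOH, ethanol-fed, orange), with the number of reads beside each point and exact 95% Poisson intervals as bars. miR-152 stands apart in PF 1 with 181 reads, whereas miR-152* has 4 to 11 reads in PF and 0 to 2 in EtOH libraries.

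In the normalized values, the strands did not follow each other closely from library to library. Over the 6 libraries their normalized values had a Pearson r of 0.72 (Spearman rho 0.64), given as a description because the points share libraries, diets and the selection of the table. It was 0.57 without pair-fed replicate 1 and 0.90 without pair-fed replicate 2. Pair-fed replicate 2 ranked 4 of 6 for miR-152 but 2 of 6 for miR-152*. The correlation rests on 24 reads of miR-152*, with 2 libraries at its floor, so counting error limits it.

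The share of miR-152* among the reads of both strands also varied between libraries. It was 3.72% (exact 95% binomial interval 1.51 to 7.52) of 188 reads in pair-fed replicate 1. It was 12.4% (6.33 to 21.04) of 89 reads in replicate 2 and 5.33% (1.47 to 13.1) of 75 reads in replicate 3. In ethanol-fed replicate 1 it was 5.26% (0.64 to 17.7) of 38 reads, within the pair-fed range. The other ethanol-fed libraries had 0 of 19 and 0 of 37 reads, which allows shares of up to 15.8% and 8.11% when the limit is set as 3 reads. The exact 95% intervals of these libraries reach somewhat higher, to 17.6% and 9.49%. Summed, the star strand made up 6.25% (3.96 to 9.31) of reads with pair feeding and 2.13% (0.26 to 7.48) with ethanol feeding, and these intervals overlap. The number of miR-152 reads in ethanol-fed libraries (19 to 37) was thus too low to tell whether its star strand made up another share there. On the normalized scale, the difference of miR-152* minus that of miR-152 was -0.98, against a pooled SD of 0.84. It was 0.52 within day 1, where miR-152 had the larger difference, and -2.03 and -1.44 within days 2 and 3. It was -0.45 without pair-fed replicate 2 and -0.62 without ethanol-fed replicate 3.

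**Figure D3:**
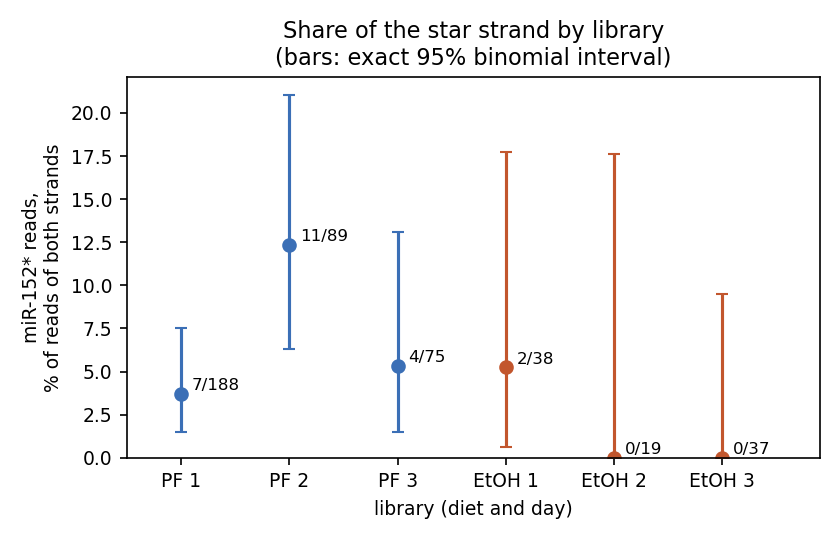
Share of miR-152* among the reads of both strands (percent) in each basal library, pair-fed (PF, blue) and ethanol-fed (EtOH, orange), with reads of miR-152* over reads of both strands beside each point and exact 95% binomial intervals as bars. The highest share is 12.4% in PF 2, and EtOH 2 and EtOH 3 are at 0 with intervals that reach 17.6% and 9.49%.

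Of the other miRNAs in the table, 5 further precursors have both strands listed, which allows the pair to be set beside them. The difference of the rarer minus that of the more abundant strand was -0.30 for miR-195* and miR-195, of a cluster known to slow the cell cycle, and -0.28 for miR-455* and miR-455. It was 0.10 for miR-126 and miR-126*, both enriched in endothelial cells, 0.19 for the 5p and 3p strands of miR-199a, and 0.34 for miR-143* and miR-143, of smooth muscle and other mesenchymal cells. The value of -0.98 in the miR-152 pair was the widest of the 6 in the deposited values. It was -0.38, near the sizes in the other pairs, with the 2 libraries at the floor left out for miR-152* only. miR-152 kept all 6 libraries there, so the strands were compared over unlike sets of libraries. The other precursor with few reads of both strands, miR-455, had only 15 reads of the star strand and 51 of the other, with the star strand at the floor in all 3 ethanol-fed libraries. The 4 other precursors had correlations between strands of 0.90 to 0.97, against 0.72 for miR-152 and 0.64 for miR-455.

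**Figure D4:**
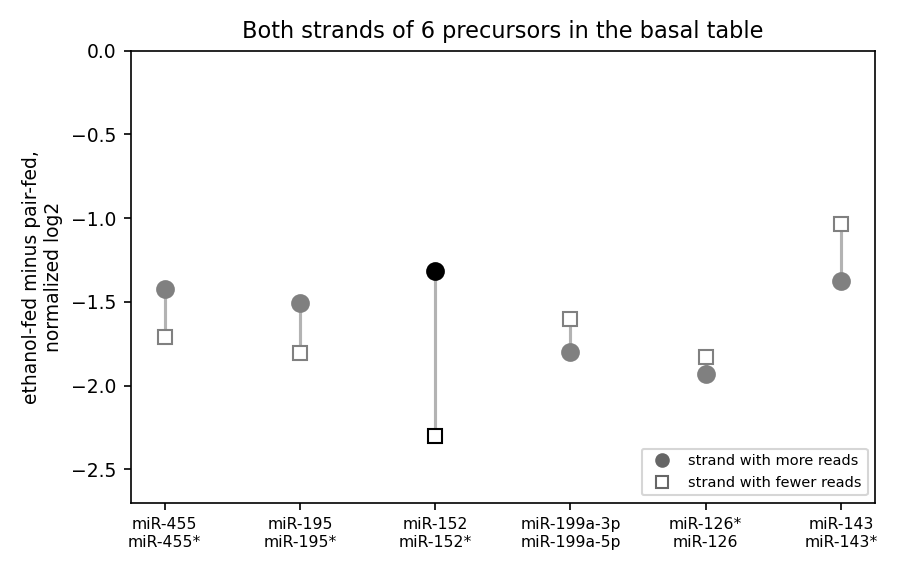
Difference between ethanol-fed and pair-fed basal libraries (normalized log2, means of 3 libraries each) for the 6 precursors with both strands in the table. Filled circles are the strand with more reads and open squares the strand with fewer, with miR-152 and miR-152* in black at -1.32 and -2.30, the widest gap of the 6.

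The miRNAs most like miR-152 over the 6 libraries were miR-195 (Pearson r 0.99), miR-23b (0.98), a product of the miR-23b/27b/24-1 cluster, and miR-126 (0.94). Over the 29 other miRNAs of the table r had a median of 0.82, and of 0.48 without pair-fed replicate 1, which is high in most of them. Without that library miR-195 was still at 0.94 and miR-23b at 0.91, while miR-126 was at 0.79. miR-152* was most like miR-181b-1* (0.85), the star strand of a miR-181b precursor, miR-455* (0.81) and miR-34a* (0.78), with a median of 0.62 over all 29. Without pair-fed replicate 1 these values were 0.84, 0.75 and 0.68, with a median of 0.40. By the same measure miR-152 ranked 7 of 29 for miR-152*, and miR-152* ranked 18 of 29 for miR-152. By r alone, each strand was more like several strands of other precursors than like its own partner. For miR-152* the nearest ranks differed little, with miR-27b* at 0.724, its partner at 0.720 and miR-10a-5p at 0.709. With 24 reads of miR-152* and 2 libraries at its floor, counting error limits this ranking. All 30 miRNAs were selected on the same 6 libraries, so r between them is a description only.

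The table also holds miRNAs known from other cell types of the liver. Of the endothelial list, miR-126 and miR-126* were in the table, and their summed level was 5476 to 34444 RPM with pair feeding and 1586 to 5087 with ethanol feeding. Of the 5 mesenchymal names 4 were in the table with 6 products, at a summed level of 1316 to 8848 RPM with pair feeding and 389 to 2570 with ethanol feeding. All 8 of these products and both strands of miR-152 were highest in pair-fed replicate 1, as were 25 of the 30 miRNAs of the table. The part of these cells in the level of miR-152 was not tested. None of the 4 leukocyte, 2 hepatocyte and 5 epithelial names is in the table, so that the purity of the Kupffer cells could not be read from it. Of a list of 10 miRNAs described as acting on DNA methyltransferases, 3 were in the table with 6 products (both strands of miR-152, miR-126 and miR-143). Their median difference was -1.60, beside a median of -1.30 over all 30 miRNAs. Without pair-fed replicate 1 these medians were -0.93 and -0.81. The diets did not overlap in 2 of the 6, miR-152* and miR-126, beside 7 of 30 (23.3%) in the table. The list names miRNAs and not strands, so the median of -1.60 mixes strands with unlike seeds, miR-152* among them. The strands without a star were at -1.32 (miR-152), -1.83 (miR-126) and -1.38 (miR-143), near or below the table median. Their star strands were at -2.30, -1.93 and -1.03.

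The difference of each strand depended on the way it was computed to an unequal degree. Without pair-fed replicate 1 the median difference of the 30 miRNAs moved from -1.30 to -0.81, and that of miR-152 from -1.32 to -0.72, close to the table as a whole. That of miR-152* stayed at -2.10, and miR-152* was among the 10 miRNAs that were then still at least 2-fold lower. With the median of the table subtracted from each library, miR-152 was at -0.19 and miR-152* at -1.17. That step takes out what the 30 miRNAs share, including the diet difference by which they were chosen. With the 2 libraries at the floor left out, which leaves replicate 1 as the only ethanol-fed library, miR-152* was at -1.69. With reads summed over each diet, which changes the scaling, the averaging and the floor together, it was at -3.08.

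**Figure D5:**
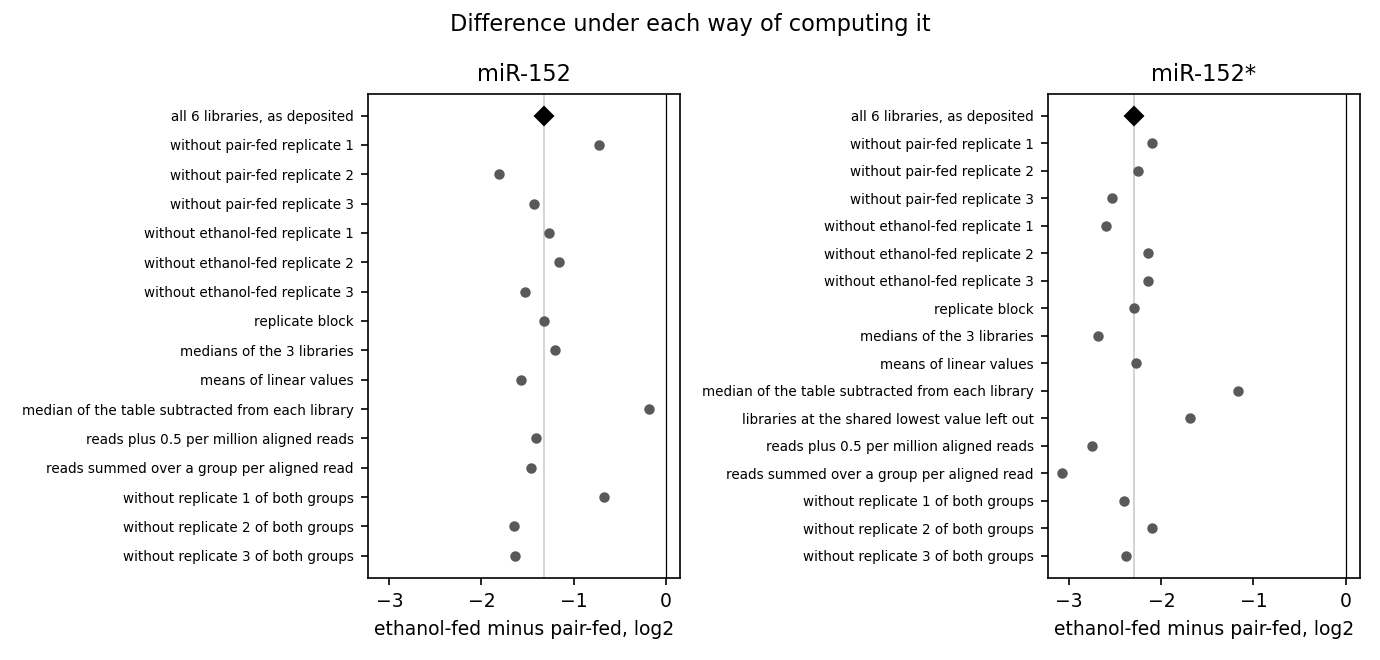
Difference between ethanol-fed and pair-fed basal libraries (log2) of miR-152 and miR-152* under each way of computing it, with the deposited values of all 6 libraries as a diamond. All values lie below 0, which the selection of the table favours, from -1.81 to -0.19 for miR-152 and from -3.08 to -1.17 for miR-152*.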

How the data were processed

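Small RNA libraries were made by the authors with the Illumina TruSeq small RNA kit, and analysed with small RNA sequence software on the rat build rn4. The submitters' processing notes also name HTSeq and DESeq. The step that scaled the values is not stated in the paper, labels or files. For each library the authors deposited normalized values on the log2 scale, in which every miRNA has a median of 0 over the 6 libraries, and only for miRNAs selected by their fold change. The deposited alignment report gives numbers of reads and other per-library figures. Columns of the authors' own comparisons (fold changes, Audic-Claverie p-values) were not used, and 0 per-sample columns were left out for want of a sample.

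Groups and days came from the sample labels, and feeding and culture times from the paper. The members and lists were chosen with earlier results of these data known. The miRNAs named are the members, rows that share a seed with one, precursors with both strands in the table, the 3 miRNAs most like each member by Pearson r, and rows with a shared lowest value. Differences are means of log2 values, ethanol-fed minus pair-fed, with no filter and no test. P-values would use the values that chose the members.

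Reads were worked out as the smallest whole numbers that give the deposited values in all 6 libraries. A common multiple of the reads of a miRNA would give the same values. The step was tested on simulated data. Intervals are exact (Poisson, Clopper-Pearson) at 95%. The alternatives added after the data were seen were those from reads and those without a whole day. Replicate numbers are days in the labels, so libraries of the same day were treated as pairs in one alternative (replicate block). Deviations of same-day libraries from their group means correlated over the 30 miRNAs at -0.28, -0.39 and -0.35 for days 1 to 3. Python 3.11.15, numpy 2.4.6, scipy 1.17.1, pandas 2.3.3, matplotlib 3.10.9 and RNAduplex 2.7.2 were used, and sequences came from RefSeq (GRCr8).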

Additional observations from a re-analysis of the deposited data

How the results depend on the processing

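No value of the miR-152 or miR-152* difference changed sign in 15 alternatives for miR-152 and 16 for miR-152*. The members were chosen for a lower level in these same libraries, which the alternatives use again. An unchanged sign was therefore likely beforehand and is no separate check. When single libraries or whole days were left out, miR-152 ranged from -1.81 to -0.67 and miR-152* from -2.60 to -2.10, and the gap between the strands from -1.73 to -0.45. With the day as a block (the mean of within-day differences) the values were the same by construction, at -1.32, -2.30 and -0.98. Subtracting the median of the table in each library moved miR-152 to -0.19 and miR-152* to -1.17, and left 0 miRNAs whose diets did not overlap, against 7 with miR-152* among them. Leaving out the libraries at the floor moved miR-152* to -1.69. The gap between the strands moved to -0.38, with miR-152 kept over all 6 libraries. Summing reads over each diet moved miR-152* to -3.08. miR-152 had no library at the floor, so leaving out such libraries was not run for it. The number of miRNAs whose diets did not overlap was 8 to 16 without single libraries, and 11, 21 and 17 without days 1, 2 and 3, where fewer libraries were compared. The correlation of the strands was 0.57 to 0.90 without single libraries, and 0.57 and 0.86 without days 1 and 2. With 24 reads of miR-152* in all, counting error limits every statement on it.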
